A study of Mus musculus with 32 samples.

Results

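Levels of 9 transcripts that mark pluripotent and epiblast cells were measured in mouse presomitic mesoderm (PSM) made in culture: Pou5f1, Sox2, Nanog, Utf1, Sall4, Otx2, Fgf5, Lin28a and Lin28b. They were taken by gene symbol from a table of raw read counts, in which all 9 of the 9 symbols have a row among 21886 rows. The cells of both groups came from 1 line of mouse epiblast stem cells (AES0204) that carries a luciferase reporter of Hes7, the repressor at the core of the segmentation clock. Every dish was cultured overnight with Activin A (20 ng/ml), bFGF and the ROCK inhibitor Y27632. Each was then kept for 30 h in the GSK3 inhibitor CHIR99021 (10 µM), bFGF (20 ng/ml), the TGF-β receptor inhibitor SB431542 (10 µM) and the BMP receptor inhibitor LDN193189 (250 nM). After that, CHIR99021 was lowered to 1 µM and the other factors were kept. The groups are 2 independent time courses of 16 dishes each, Ex4 (155 to 405 min) and Ex5 (165 to 425 min), with 1 RNA-seq library per dish and no difference in treatment between them. The labels do not say from which moment the minutes were counted. No library of undifferentiated epiblast stem cells was analysed here, so the values describe the hours sampled and not the whole conversion.

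Epiblast stem cells resemble the epiblast just after implantation. In such cells the POU factor Oct4 (Pou5f1) and the HMG-box factor Sox2 bind DNA as a pair and, with the homeodomain factor Nanog, hold the pluripotent state. Utf1 is a chromatin-associated protein of pluripotent cells, and Sall4 a zinc finger factor that works with Oct4 and persists in early mesoderm. Otx2 and the ligand Fgf5 mark the postimplantation epiblast, Otx2 being kept in its anterior part. Lin28a and Lin28b are RNA-binding proteins that block the maturation of let-7 microRNAs. Sox2 is also made in neural progenitors and in the axial progenitors of the tail end, and it is lost as cells enter the PSM.

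Pou5f1, Sox2 and Nanog are shown through their promoters, because 2 of them encode the factors that bind as a pair and the other is a textbook target of that pair. The stretches are the 250 bases before the first listed start site in RefSeq (GRCm38.p6, plus strand), 5′ to 3′. For Sox2 that start lies 410 bases upstream of the gene start given below (GENCODE M21), so the stretch and its octamer core do not abut the latter. The stretches lie at chr17:35505782-35506031 (Pou5f1), chr3:34649745-34649994 (Sox2) and chr6:122707239-122707488 (Nanog). Capitals mark letters found on either strand: a joined OCT-SOX element (TTTGCAT, any base, then ACAATG), an octamer core (ATGCAAA), a SOX core (CATTGT), a TCF/LEF core (CTTTGA) and an RBPJ core (TGGGAA); the joined element contains an octamer core and a SOX core.
Pou5f1: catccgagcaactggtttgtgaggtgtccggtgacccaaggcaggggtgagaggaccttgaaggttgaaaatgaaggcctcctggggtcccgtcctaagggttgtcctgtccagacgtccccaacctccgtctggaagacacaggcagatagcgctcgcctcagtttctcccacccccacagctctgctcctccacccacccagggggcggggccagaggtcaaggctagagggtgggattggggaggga
Sox2: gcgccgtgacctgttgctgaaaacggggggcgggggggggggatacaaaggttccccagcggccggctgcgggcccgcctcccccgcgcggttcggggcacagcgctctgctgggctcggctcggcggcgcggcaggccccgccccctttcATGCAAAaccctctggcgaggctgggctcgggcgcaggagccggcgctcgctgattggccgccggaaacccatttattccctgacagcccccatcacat
Nanog: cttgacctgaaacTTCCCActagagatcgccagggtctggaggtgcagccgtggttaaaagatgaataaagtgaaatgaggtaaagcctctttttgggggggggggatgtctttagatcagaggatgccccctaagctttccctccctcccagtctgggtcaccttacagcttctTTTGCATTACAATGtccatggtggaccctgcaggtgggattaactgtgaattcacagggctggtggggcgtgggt
The joined element stood 75 to 62 bases before the Nanog start, and, with each gene taken at its first listed start site, it was found in 1 of 27025 promoters of that length (0.0037%). That 1 promoter is the Nanog stretch itself. The search took only the exact letters given above, so variants of the element were not counted. A second listed Nanog start has the same element 151 to 138 bases before it. Sox2 had 1 octamer core, which 4.06% of promoters hold, and Nanog 1 RBPJ core (21.5%). None of these letters was present in the Pou5f1 stretch shown. The second listed Pou5f1 start has a SOX core 158 to 153 bases and an RBPJ core 164 to 159 bases before it. A SOX core stood in 11% of promoters. A match describes the letters only. Of the 9 members 8 have a promoter in the table, and Sall4 does not.

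The 2 RNAs of the let-7 family are shown because Lin28a and Lin28b are known to act on let-7 precursors. The mean slopes of Lin28a and Lin28b had opposite signs here, though the fall of Lin28a did not pass in Ex4. The mature let-7a-5p (chr13:48538239-48538260, minus strand) has its seed in capitals, and the let-7g hairpin (chr9:106178840-106178927, plus strand) has in capitals the GGAG that LIN28 proteins are known to bind. Both are from RefSeq (GRCm38.p6).
let-7a-5p: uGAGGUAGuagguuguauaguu
let-7g hairpin: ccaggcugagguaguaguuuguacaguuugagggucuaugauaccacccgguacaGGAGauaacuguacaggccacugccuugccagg
Of 11 mature let-7 and miR-98 names in the table, 10 share the seed GAGGUAG, and 8 of the 10 hairpins with both arms listed have a GGAG between the arms. The microRNAs themselves were not measured in these libraries.

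Depth was 19.3 to 29.5 M counts per library in Ex4 and 16.1 to 28.6 M in Ex5, and each time has 1 library per experiment. The spread was therefore taken from deviations around fitted curves, and p-values measure the spread between dishes of 1 line. Each experiment is 1 time course, so tests between Ex4 and Ex5 do not cover the spread between repeats of a course. PSM identity was checked on 14 markers. Tbx6 (502 CPM, read counts scaled to the effective size of each library), Msgn1 (81.7 CPM), Dll1 (853 CPM) and Rspo3 (245 CPM) were high, and 11 of the 14 passed the expression filter of 1 CPM in at least 16 libraries. Mesp2 (0.0811 CPM) and Ripply2 (0.16 CPM), which mark the front of the PSM, were near 0. Epiblast genes other than the members were mixed. Of 25 listed, 17 passed the filter, among them Dnmt3b (183 CPM), Trim71 (158 CPM), Cdh1 (60.7 CPM) and Fst (58.1 CPM), while the NODAL pathway genes Nodal (0.259 CPM), Tdgf1 (0.051 CPM), Lefty1 (0.043 CPM) and Lefty2 (0.0376 CPM) were among the 8 that did not. The summed level of the list was 583 to 767 CPM in Ex4 and 467 to 657 CPM in Ex5.

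Of the members, 5 passed the expression filter, namely Pou5f1, Sox2, Sall4, Lin28a and Lin28b, and 4 did not, Nanog, Utf1, Otx2 and Fgf5. Levels were compared per kilobase of exon. Lin28a was by far the highest member at 265 ± 16.7 CPM per kb (SD, n = 32 libraries), and its lowest library lay above the highest library of every other member. Sall4 (28.1 ± 3.21 CPM per kb), Pou5f1 (21.3 ± 7.27) and Lin28b (16.6 ± 1.80) followed, and neighbours in that order overlapped between libraries. Sox2 stood at 9.95 ± 4.21 CPM per kb and overlapped Lin28b. The 4 filtered members were all below every Sox2 library: Utf1 at 0.532 ± 0.417, Nanog at 0.127 ± 0.0538, Fgf5 at 0.0413 ± 0.0358 and Otx2 at 0.0145 ± 0.0113 CPM per kb, each overlapping its neighbour. With the length of the longest transcript in place of all exons, Pou5f1 (35.2) moved above Sall4 (30.6).

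The first comparison asked which members changed over the sampled hours. Pou5f1, Sox2, Sall4 and Lin28a fell and Lin28b rose (edgeR quasi-likelihood test on the mean slope of both experiments, adjusted over 11772 genes). That is 5 of 5 tested members called, with 4 falling and 1 rising, against 53.3% of all tested genes called, 26.6% falling and 26.8% rising, so a call by itself is common in these data. The members' median slope was that of Sall4, -0.17 log2 per 100 min, against -0.0016 over all tested genes. In bulk RNA, fewer cells with a transcript and less transcript per cell cannot be told apart.

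Pou5f1 (ENSMUSG00000024406.16; chromosome 17, 35506018 to 35510772, plus strand, mm10) fell most among the members. Its Ex4 libraries ranged from 31.3 to 84.5 CPM, with a median of 53.1. Those of Ex5 ranged from 21.4 to 56.2 CPM, with a median of 38.7. The first 4 time points averaged 78.1 ± 5.10 CPM (SD, n = 4) in Ex4 and the last 4 averaged 36.2 ± 3.52, a drop of 53.6%. In Ex5 the same windows gave 54.5 ± 1.71 and 25.3 ± 2.66 CPM, a drop of 53.5%. Early and late libraries did not overlap in either experiment, and in Ex4 every one of the first 8 libraries (55.7 CPM or more) lay above every one of the last 8 (50.5 CPM or less). The share of all genes without such overlap was not counted, and 53.3% were called for trend. Here and for the members below, a lack of overlap therefore only describes the libraries. The slope was -0.54 ± 0.02 log2 per 100 min (SE; 95% interval -0.59 to -0.49, adjusted p = 3.3e-20), at which the level drops to 50% in 184 min. It was the 55th most negative of 11772 slopes. The slopes were -0.56 ± 0.03 in Ex4 and -0.53 ± 0.03 in Ex5, and their difference did not pass the test (0.03, 95% interval -0.06 to 0.12, adjusted p = 0.739).

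Sox2 (ENSMUSG00000074637.7; chromosome 3, 34650405 to 34652461, plus strand, a single-exon gene inside the longer transcript unit Sox2ot) was lower and fell more slowly. It went from 33.1 ± 1.18 CPM in the first 4 libraries of Ex4 to 23.3 ± 1.20 in the last 4, and Ex5 went from 16.0 ± 0.587 to 10.6 ± 0.461. The windows did not overlap in either experiment. Its slope was -0.22 ± 0.03 log2 per 100 min (adjusted p = 1.31e-08), and the slopes of the 2 experiments were both -0.22.

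Sall4 (ENSMUSG00000027547.17; chromosome 2, 168748332 to 168767943, minus strand) ranged from 137 to 189 CPM (median 156) in Ex4, and 123 to 179 CPM (median 145) in Ex5. It fell from 178 ± 9.02 to 145 ± 6.48 CPM between the same windows of Ex4, and the Ex5 windows gave 163 ± 6.69 and 131 ± 9.18. That is a drop of 18.3% and 19.3%, again without overlap of the windows. The slope was -0.17 ± 0.02 log2 per 100 min (adjusted p = 1.03e-11).

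The 2 LIN28 genes took opposite courses in the mean slope of both experiments. Lin28a (ENSMUSG00000050966.9; chromosome 4, 134003330 to 134018841, minus strand) ranged from 1051 to 1155 CPM in Ex4 (median 1097), and 908 to 1137 CPM in Ex5 (median 1017). Its window means were 1127 ± 25.1 and 1081 ± 12.0 CPM in Ex4, 4.08% lower late. For Ex5 they were 1105 ± 34.1 and 932 ± 16.0, 15.6% lower late, and the windows did not overlap in either experiment. Its slope was -0.07 ± 0.01 log2 per 100 min (adjusted p = 9.27e-07). Of the 5 tested members it was the 1 whose slopes in the 2 experiments passed as different: -0.03 ± 0.02 in Ex4 and -0.12 ± 0.01 in Ex5 (difference -0.08 ± 0.02, 95% interval -0.13 to -0.04, adjusted p = 0.00475). Such slope differences were called for 16.1% of all tested genes. The Ex4 slope of Lin28a did not pass in this joint fit (edgeR adjusted p = 0.119). In a separate fit of Ex4 alone its slope was -0.04 and did not pass either (edgeR adjusted p = 0.0507, the highest of 6 alternatives).
Lin28b (ENSMUSG00000063804.8; chromosome 10, 45376620 to 45486395, minus strand) ranged from 141 to 205 CPM in Ex4 (median 161), and 120 to 152 CPM in Ex5 (median 139). It rose from 153 ± 9.22 to 176 ± 20.0 CPM between the Ex4 windows, while the Ex5 windows gave 131 ± 7.88 and 146 ± 1.66. The Ex5 windows were well apart, and those of Ex4 only just, with an early high of 161.0 and a late low of 161.3 CPM. Its slope was 0.09 ± 0.02 log2 per 100 min (adjusted p = 4.2e-05). The last Ex4 library, at 205 CPM, was the highest of the 32. Without it the slope was 0.07 and the call was kept.

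**Figure D1:**
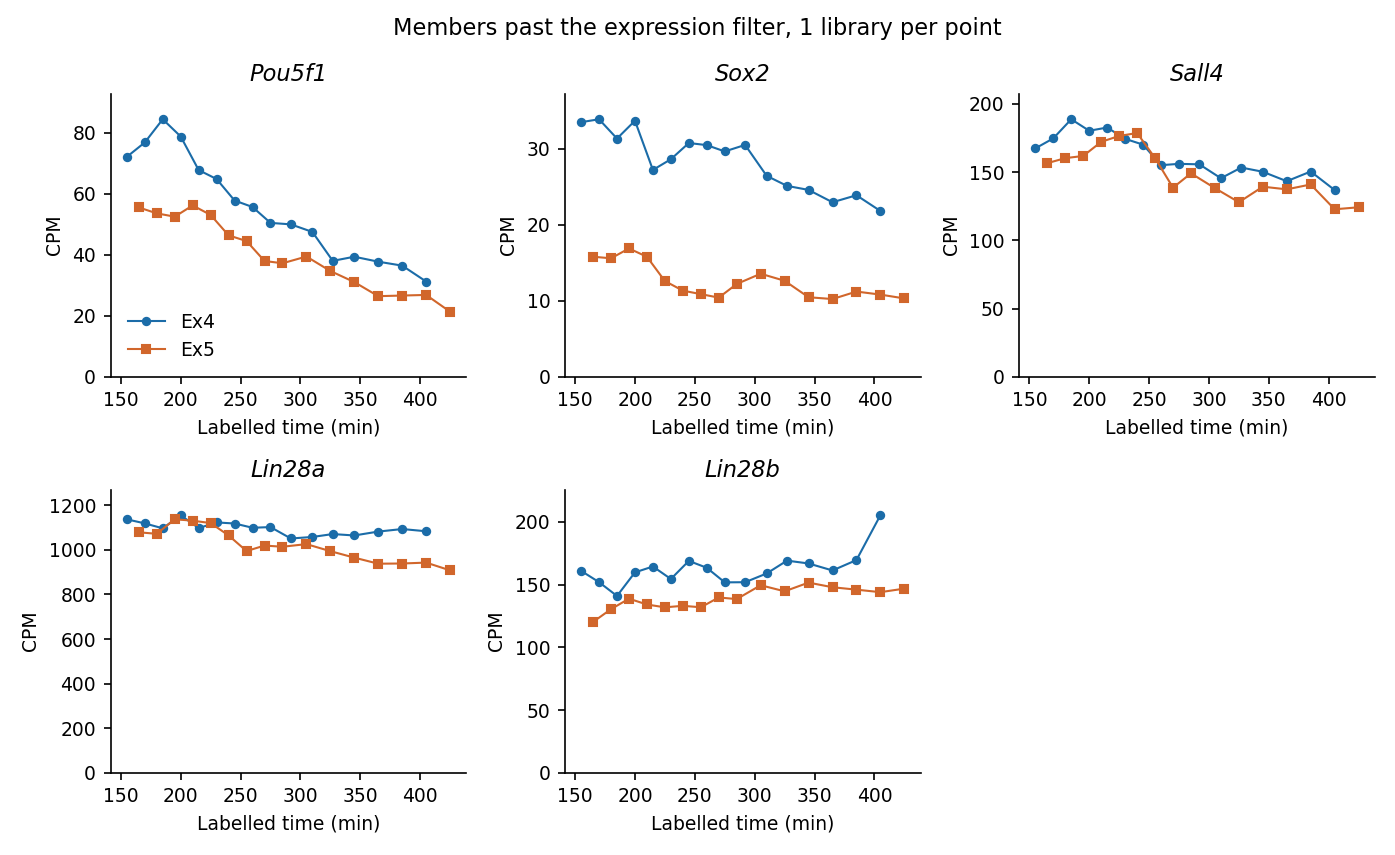
Level of the 5 members past the expression filter (CPM, linear axis from 0) against the labelled time in minutes; each point is 1 library, circles Ex4 and squares Ex5. Pou5f1 falls from 72.1 to 31.3 CPM between the first and last Ex4 library, Lin28a stays near its starting level in Ex4, and Sox2 in Ex5 lies below Sox2 in Ex4 at every time.

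Rates were then set against each other as the slope of the log2 ratio of 2 members in each library (two-sided permutation test, 100000 orders of the times within each experiment, 10 pairs, Benjamini-Hochberg adjusted). Of the 10 pairs, 9 differed. Pairs of other genes were not tested, and 53.3% of all tested genes were called for trend. The count of pairs is therefore not a result about the members. Pou5f1 lost ground to Sox2 by -0.31 ± 0.04 log2 per 100 min (SE, n = 32), to Sall4 by -0.38 ± 0.02 and to Lin28a by -0.47 ± 0.02 (permutation p = 1e-05 each, the smallest the draws can give, adjusted p = 1.25e-05). The ratio of Lin28a to Lin28b changed by -0.165 ± 0.02, with -0.124 in Ex4 and -0.205 in Ex5 (permutation adjusted p = 1.25e-05). Sox2 and Sall4 were the pair that did not differ beyond the spread (-0.07 ± 0.04, permutation adjusted p = 0.09). Sall4 against Lin28a (-0.09 ± 0.02, permutation adjusted p = 0.000122) did not pass in Ex5 taken alone (-0.06, adjusted p = 0.0836).

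Whether the members changed faster early or late was asked with a squared time term. None of the 5 passed (edgeR, 0 members), while 17.3% of all tested genes did. The values were -0.03 ± 0.03 for Pou5f1, -0.01 ± 0.04 for Sox2, 0.01 ± 0.02 for Sall4, 0.01 ± 0.01 for Lin28a and 0.01 ± 0.02 for Lin28b, in log2 per squared 100 min. Unadjusted, 0 of the 5 had a p under 0.05, and DESeq2 also called 0. The squared term was shared by both experiments, so bends of opposite sign would cancel in it. Fitted alone, Lin28b had 0.09 ± 0.04 in Ex4 and -0.05 ± 0.02 in Ex5 (edgeR adjusted p = 0.13 and 0.156). Sox2 had -0.06 ± 0.04 and 0.08 ± 0.05 (edgeR adjusted p = 0.275 and 0.338).

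**Figure D2:**
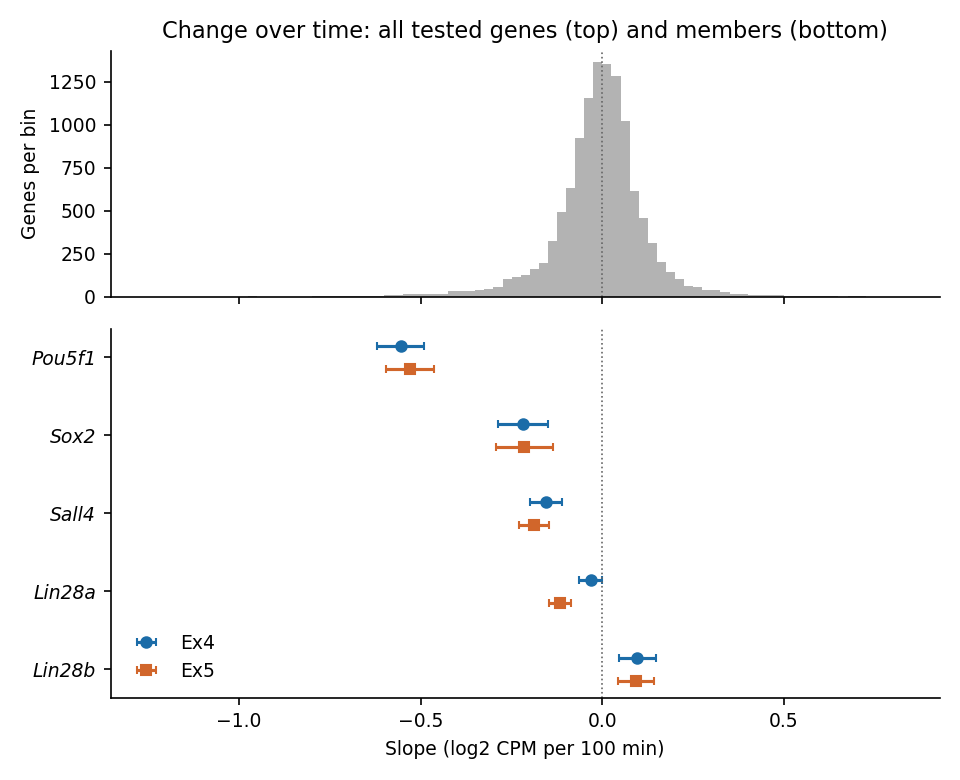
Top, histogram of the slopes of the 11772 tested genes (log2 CPM per 100 min, mean of both experiments); bottom, slopes of the 5 tested members in Ex4 (circles) and Ex5 (squares) with 95% intervals. Pou5f1 lies in the far left tail at -0.54, Lin28b to the right of 0, and the Lin28a values of the 2 experiments are apart.

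The second comparison asked whether levels differed between the 2 time courses at a shared time of 285 min. All 5 tested members were lower in Ex5, where 27.7% of all tested genes were called lower and 55.1% were called in either direction. With 1 course on each side, the p-values and intervals below measure the spread between dishes and not between repeats of a course. Sox2 differed most. Its 16 libraries lay between 21.8 and 33.9 CPM in Ex4 (median 29.1) and between 10.2 and 16.9 CPM in Ex5 (median 11.8), so the experiments did not overlap at any time. How many of all genes lacked such overlap was not counted. The Ex5 level of Sox2 was 0.449 times that of Ex4 (log2 -1.16 ± 0.04, 95% interval -1.23 to -1.08, edgeR adjusted p = 3.47e-25). Pou5f1 in Ex5 was at 0.766 times the Ex4 level (log2 -0.39 ± 0.03, adjusted p = 2.81e-12) and Lin28b at 0.85 times (-0.23 ± 0.03, adjusted p = 1.27e-09). Lin28a (0.933 times, adjusted p = 2.05e-06) and Sall4 (0.936 times, adjusted p = 0.000393) differed least.

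Expressed as time, the differences ranged widely. Divided by each member's own slope, the difference between experiments equalled 55.8 ± 13.9 min (SE) of change for Sall4, 70.9 ± 7.02 min for Pou5f1, 136 ± 30.2 min for Lin28a (316 min with its Ex4 slope, 86.4 min with its Ex5 slope) and 533 ± 67.7 min for Sox2. For Lin28b it equalled -248 ± 55.6 min, because Lin28b rose with time and yet was lower in Ex5. Other cell markers also differed between the courses. Of 11 tested PSM markers 9 were higher in Ex5 and 1 lower. Of 13 tested caudal epiblast genes, which mark the progenitors that feed the PSM, 10 were lower and 3 higher, with Nkx1-2 at log2 -1.13 ± 0.03. The summed level of the caudal epiblast list was 2178 to 2618 CPM in Ex4 and 1617 to 2262 CPM in Ex5. The neural list had 2 higher and 3 lower of 6 tested, with a median difference of log2 -0.363. Hes3 (-2.25 at 1.54 CPM), Sox1 (-0.77 at 2.20 CPM) and Tubb3 (-0.66 at 4.66 CPM) were lower in Ex5. Irx3 (0.45 at 22.4 CPM) was higher, Pax6 (-0.06 at 11.7 CPM) did not pass, and Olig3 and Nkx6-2 were near 0 CPM. The summed level of the neural list, 364 to 477 CPM in Ex4 and 422 to 576 CPM in Ex5, was mostly that of Nes (414 CPM), which was higher in Ex5 (0.21). The part of these markers in the Sox2 difference was not tested.

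The third comparison asked whether members cycle with the segmentation clock. The phase was taken from Hes7, with a common period of 135 min, and cosine and sine terms were tested together. Of the 5 tested members 1, Sall4, passed, as did 1.32% of all tested genes (155 of 11772). Its fitted swing from trough to peak was 1.12-fold (log2 0.17 ± 0.03, edgeR adjusted p = 0.00385), and it peaked 1.20 ± 4.04 min (SE) after Hes7. Around the straight line of each experiment, 14 of the 17 libraries nearer to a Hes7 peak than to a trough were above the line and 13 of the 15 others were below it. The mean deviation was 0.05 ± 0.07 log2 (SD, n = 17) near the peak and -0.05 ± 0.06 (SD, n = 15) near the trough, so single libraries near the peak and near the trough overlapped. The swing was log2 0.12 in Ex4 alone (adjusted p = 0.384) and 0.22 in Ex5 alone (adjusted p = 0.0703), and neither passed. Leaving time out of the model ended the call (adjusted p = 0.384), as did fixing the period to 120 min (adjusted p = 0.0662). Over all 10 alternative settings the adjusted p lay between 0.000271 and 0.384. The call was kept without any 1 of the 32 libraries (adjusted p from 0.00134 to 0.0206).

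Sox2 had the larger swing, 1.16-fold (log2 0.21 ± 0.05), with a fitted peak at -56.6 ± 5.57 min from the Hes7 peak, close to the trough of Hes7. It did not pass (edgeR adjusted p = 0.102), while DESeq2 gave an adjusted p of 0.0449, the lowest of 10 alternatives that reached up to 0.505. Pou5f1 (1.07-fold, adjusted p = 0.519), Lin28b (1.02-fold, adjusted p = 0.928) and Lin28a (1.01-fold, adjusted p = 0.976) did not pass. The SE of the Lin28a swing was 0.02 on the log2 scale. In the same libraries the swing of Hes7 was such that 15 of 17 libraries near its peak were above the line and 15 of 15 near its trough below it, which follows from its use as the clock.

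**Figure D3:**
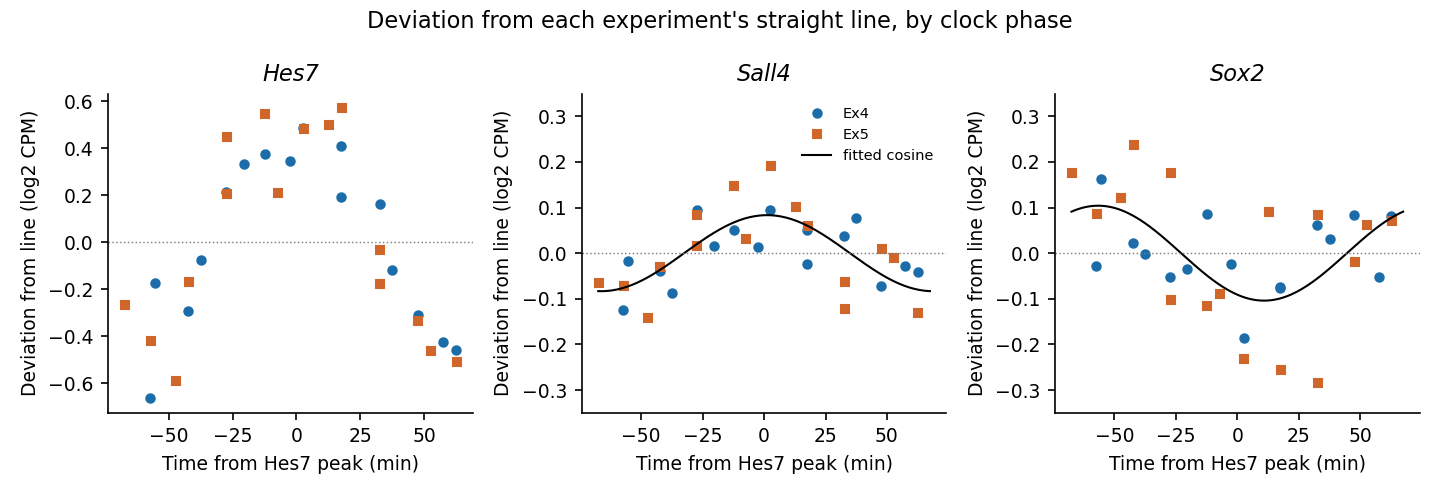
Deviation of log2 CPM from the straight line of each experiment against the time from the nearest Hes7 peak (min); points are libraries, circles Ex4 and squares Ex5, and the curve is the fitted cosine. Sall4 is highest near the Hes7 peak, with 14 of 17 libraries above the line there, and Sox2 is lowest near it; the Hes7 panel has its own, wider axis.

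The other 4 rows were too low to judge over time in single libraries. Utf1 (ENSMUSG00000047751.9; chromosome 7, 139943789 to 139945112) had 6 to 51 reads per library in Ex4 and 1 to 16 in Ex5. In Ex4 it averaged 1.74 ± 0.246 CPM (SD, n = 4) in the first 4 libraries and 0.395 ± 0.0947 in the last 4, without overlap, and in Ex5 0.569 ± 0.116 and 0.224 ± 0.161 CPM, also without overlap. Pooled over all 16 libraries it had 375 reads in Ex4 (0.982 CPM, exact 95% Poisson interval 0.885 to 1.09) and 124 in Ex5 (0.358 CPM, 0.298 to 0.427); these intervals cover counting error only. When all genes with a read were fitted, Utf1 fell by -0.86 ± 0.13 log2 per 100 min (edgeR adjusted p = 9.69e-07) and was lower in Ex5 (log2 -1.21 ± 0.19, adjusted p = 1.68e-06).

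Fgf5 (ENSMUSG00000029337.2; chromosome 5, 98254184 to 98277030) had 0 to 9 reads per library and 39 in all in each experiment. In Ex4 28 of its reads fell in the first 8 libraries (0.141 CPM, Poisson interval 0.0934 to 0.203) and 11 in the last 8 (0.0602, 0.0301 to 0.108). In Ex5 the counts were 32 (0.171 CPM, 0.117 to 0.241) and 7 (0.0441, 0.0177 to 0.0909). The unfiltered fit gave -1.06 ± 0.26 log2 per 100 min (edgeR adjusted p = 0.00102), from a row at 0 in 2 Ex4 and 4 Ex5 libraries.

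Nanog (ENSMUSG00000012396.12, chromosome 6, 122707489 to 122714633) was low, with 3 to 12 reads per library in Ex4 and 0 to 11 in Ex5. It stood at 0.352 CPM (0.274 to 0.444) in the first and 0.318 CPM (0.241 to 0.411) in the last 8 libraries of Ex4, and at 0.245 (0.179 to 0.327) and 0.227 (0.159 to 0.314) in Ex5. The first 4 Ex4 libraries averaged 0.414 ± 0.0439 CPM (SD, n = 4) and the last 4 averaged 0.280 ± 0.104, a drop of 32.3%. In Ex5 the same windows gave 0.318 ± 0.135 and 0.221 ± 0.0697 CPM, a drop of 30.6%. The windows overlapped in both experiments. The Nanog slope in the unfiltered fit did not pass (-0.10 ± 0.16, 95% interval -0.43 to 0.23, edgeR adjusted p = 0.709). That interval leaves out the slope of Pou5f1 (-0.54) but holds those of Sox2 (-0.22), Sall4 (-0.17), Lin28a (-0.07) and Lin28b (0.09). A fall as slow as that of Sox2 could not be told apart from no change. Otx2 (ENSMUSG00000021848.16; chromosome 14, 48657677 to 48673819) was the lowest row, with 24 reads in all of Ex4 and 21 in all of Ex5. It was at 0 in 3 and 5 libraries. In Ex4 17 of its reads fell in the first 8 libraries (0.0854 CPM, 0.0497 to 0.137) and 7 in the last 8 (0.0383, 0.0154 to 0.0790). In Ex5 the counts were 15 (0.0799 CPM, 0.0447 to 0.132) and 6 (0.0378, 0.0139 to 0.0823). The first 4 and last 4 libraries overlapped in Ex4 and did not in Ex5. Its slope did not pass (-0.62 ± 0.29, 95% interval -1.21 to -0.02 before adjustment, edgeR adjusted p = 0.0938).

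**Figure D4:**
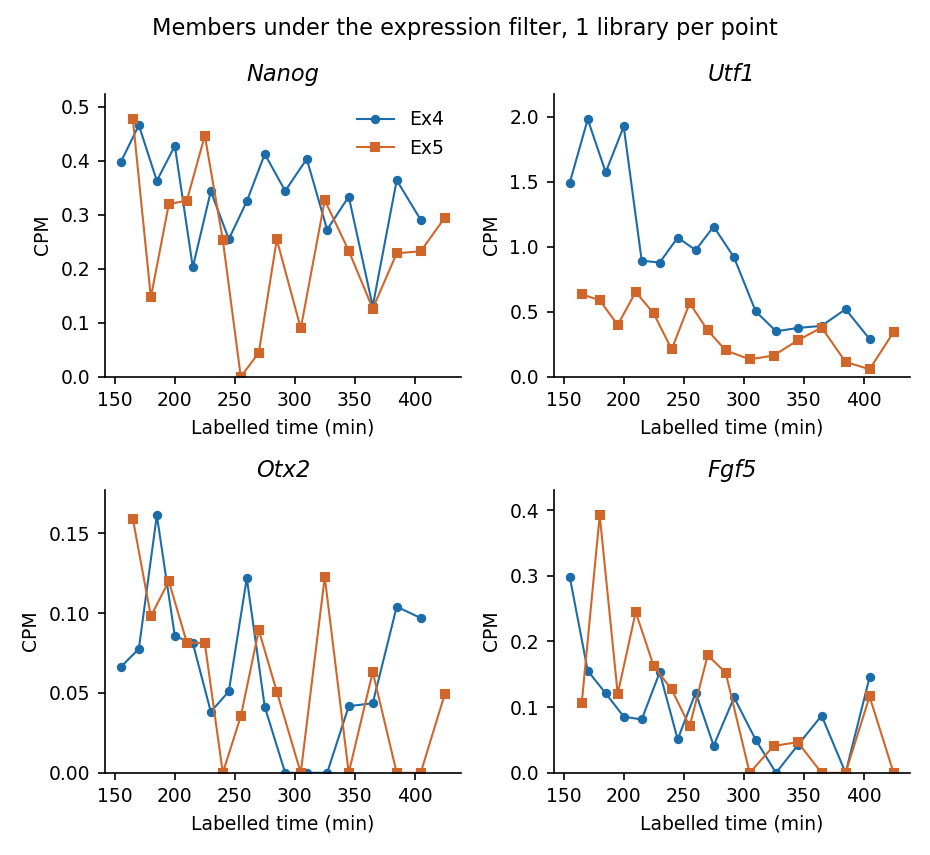
Level of the 4 members under the expression filter (CPM, linear axes from 0, each panel with its own range) against the labelled time in minutes; each point is 1 library, circles Ex4 and squares Ex5. Utf1 falls below its first 4 Ex4 libraries (1.49 to 1.98 CPM) from the fifth on, while Nanog and Otx2 scatter over a few reads.

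Other genes of the same programme were read from lists. Of 17 naive pluripotency genes 4 passed the filter, and of these 3 fell and 1 rose. Tfcp2l1 (-0.46 ± 0.06 log2 per 100 min at 2.58 CPM) and Klf5 (-0.31 ± 0.03), both transcription factors of the naive state, fell, and Gbx2 (0.04 ± 0.02 at 107 CPM) rose slightly. The Gbx2 slope did not pass in Ex4 (0.02) and passed in Ex5 (0.06). Zfp42, Dppa3, Prdm14, Dppa5a and Esrrb averaged under 0.14 CPM, and Tcl1 had no read. Of 25 further epiblast genes 17 were tested: 11 fell, 1 rose and 5 did not pass, with a median slope of -0.165. The epithelial cadherin Cdh1 and the follistatin gene Fst, at -0.59 and -0.80, fell most, and the DNA methyltransferase Dnmt3b rose by 0.06 ± 0.01. The germ cell list, which could also hold Pou5f1 and Nanog, had 3 of 9 genes past the filter, 1 falling (Tfap2c, -0.59 ± 0.09 at 1.69 CPM) and 1 rising (Ifitm3, 0.15 ± 0.06 at 2.73 CPM), with Dppa3 and Dazl near 0. The Ifitm3 slope did not pass in Ex4 (-0.02) and passed in Ex5 (0.32).

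Close relatives of the members did not share 1 direction. Among 11 tested POU, SOXB1, OTX, SALL and FGF4 family genes 4 fell, 3 rose and 4 did not pass. Otx1, the sister gene of Otx2, rose by 0.42 ± 0.04 log2 per 100 min at 6.97 CPM, and the POU factor Pou2f1 (Oct1) by 0.17 ± 0.03 at 96.7 CPM. Sox3, a SOXB1 relative of Sox2, fell by -0.13 ± 0.04 and was lower in Ex5 by log2 -0.70 ± 0.05. The Sox3 slope did not pass in Ex4 (-0.07) and passed in Ex5 (-0.19). Fgf4, of the same ligand subfamily as Fgf5, fell by -0.20 ± 0.02 at 57.5 CPM. Sall1 (0.15), Sall2 (-0.10) and Sall3 (-0.11) all passed, the first rising and the others falling. Sall1 rose by 0.24 in Ex4 and 0.06 in Ex5, whereas Sall2 and Sall3 fell in Ex5 (-0.19 and -0.20) and did not pass in Ex4 (-0.01 and -0.02); all 3 slopes differed between experiments. These genes were chosen after their values were seen, as relatives of Sall4.

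The LIN28 and let-7 list had 14 tested genes, of which 6 rose, 2 fell and 6 did not pass, with a median slope of 0.0263. Hmga2, a chromatin protein whose mRNA is a textbook let-7 target, rose by 0.20 ± 0.02 log2 per 100 min at 405 CPM, and the mRNA-binding protein gene Igf2bp2 by 0.08 ± 0.01 at 323 CPM. Syncrip fell (-0.09 ± 0.02), as did Trim71, another let-7 target (-0.07 ± 0.02, with 0.04 in Ex4 and -0.19 in Ex5). In the caudal epiblast list 11 of 13 tested genes fell and none rose, led by Cdx1 (-1.24 ± 0.06 at 3.18 CPM) and Wnt8a (-0.43 ± 0.02). By experiment, 5 of the 13 fell and 1 rose in Ex4, and all 13 fell in Ex5. The slope was lower in Ex5 for 8 of them and higher for 1. T had 0.0027 in Ex4 and -0.20 in Ex5, Mixl1 -0.03 and -0.41, and Cdx2 -0.0016 and -0.12. In the PSM list 7 of 11 rose and 3 fell, with Foxc2 (0.49 ± 0.05) and Meox1 (0.38 ± 0.08) rising most and Aldh1a2 (-0.18 ± 0.02) and Mesp1 (-0.17 ± 0.06) falling most. By experiment, 6 rose and 1 fell in Ex4, against 6 and 4 in Ex5. The Mesp1 slope did not pass in Ex4 (-0.13) and passed in Ex5 (-0.21).

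Neural, endoderm and extraembryonic ectoderm lists, whose cells can also hold Sox2, Sall4 or Lin28 transcripts, moved in part with the members. The neural list had 2 rising (Irx3, 0.48 ± 0.04, and Pax6, 0.17 ± 0.03) and 3 falling of 6 tested, among them Hes3 (-0.80 ± 0.11) and Tubb3 (-0.21 ± 0.07). By experiment, 2 neural genes rose and 1 fell in Ex4, against 2 and 4 in Ex5. The Tubb3 slope did not pass in Ex4 (-0.08) and passed in Ex5 (-0.34). The endoderm list had 2 rising (Cxcr4, 0.32 ± 0.03, and Foxa1, 0.29 ± 0.07) and 3 falling of 5 tested, among them Cldn4 (-0.40 ± 0.08) and Foxa2 (-0.27 ± 0.07), with Ttr, Hnf4a and Afp near 0. All 4 tested extraembryonic ectoderm genes fell in the mean slope, among them Krt18 (-0.31 ± 0.03) and Tfap2c, with Elf5 and Eomes near 0. By experiment, 3 of them fell in Ex4 and 4 in Ex5. Cdx2, also in the caudal epiblast list, had -0.0016 in Ex4 and -0.12 in Ex5, and Tfap2c is also in the germ cell list. The part of these lists in the fall of the members was not tested.

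**Figure D5:**
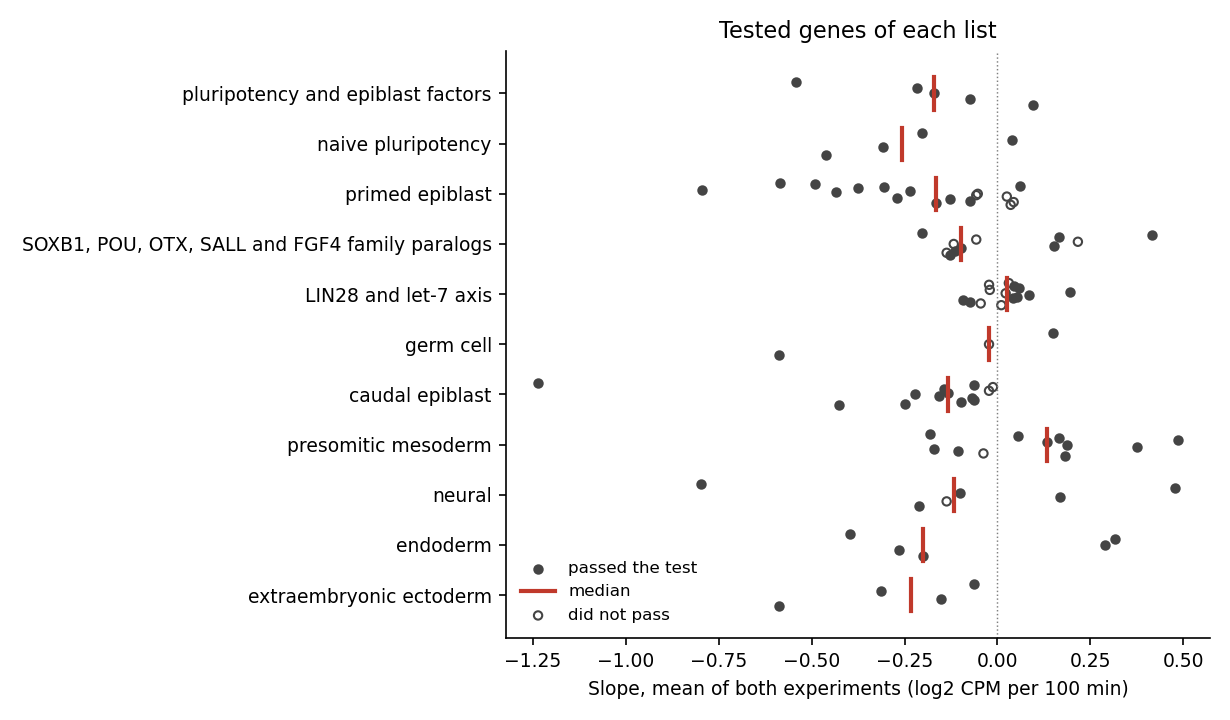
Slopes over time (log2 CPM per 100 min, mean of both experiments) of the tested genes of each list, the 5 tested members in the top line; filled points passed the test, open points did not, and red bars are medians. Epiblast and caudal epiblast genes lie mostly left of 0 and PSM genes mostly right of it.

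The genes most like each member were found by the root mean square difference of log2 CPM, centred per experiment, over 32 libraries and 9813 genes. For Pou5f1 these were Cdh1 (0.128), the protease-activated receptor gene F2rl1 (0.130) and the Wnt ligand gene Wnt8a (0.143), against 0.447 for the median gene. For Sox2 they were the desmosomal cadherin Dsg2 (0.112), Smim10l2a (0.112) and the glutathione synthesis gene Gclc (0.115), against 0.242. Sall4 was nearest to Col18a1 (0.0686), Trub2 (0.0803) and Cdc42bpg (0.0818), Lin28a to Txnrd1 (0.0409), Glyr1 (0.0424) and Angel2 (0.043), and Lin28b to Mmd (0.0522), Top2b (0.0527) and Atp11b (0.0557). These values describe the libraries and carry no test.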

How the data were processed

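Polyadenylated RNA of 32 dishes was sequenced. The authors deposited 1 table of raw counts, with genes named by symbol. The submitters' processing notes list HTSeq 0.6.1, HISAT2 2.1.0, cutadapt 1.14, bcl2fastq 2.17.1.14 and build mm10. No source used here names the annotation or strand setting. None of the genes that overlap a member (Gm19553, Sox2ot, Gm13061, Gm14261, Otx2os1, Gm49154) has a row among the counts. Their reads may therefore have been counted to the member. Columns matched sample descriptions 1 to 1. Positions and exon lengths come from GENCODE M21 (GRCm38) by symbol.

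CPM used TMM factors (edgeR 4.0.16, R 4.3.3). Genes at 1 CPM or more in 16 or more libraries (11772) were fitted. The model had, for each experiment, an intercept (at 285 min) and a slope, plus cosine and sine of the phase common to both. That phase came from a least squares fit to Hes7 (prior count 0.5, periods 90 to 240 min). Tests were edgeR's quasi-likelihood F tests with Benjamini-Hochberg adjustment at 0.05. Ratios of members used counts plus 0.5. DESeq2 1.42.0, other size factors, no filter, other periods and time models, each experiment alone, a replicate block and each library left out were tried. The script was tested on simulated data. Members and lists were chosen with earlier results of these data known. Named genes are the members and, per list, up to 2 rising and 2 falling genes of largest slope past the test, and for likeness the 3 nearest genes at 5 CPM or more; further list genes in the text were chosen after their values were seen.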

Additional observations from a re-analysis of the deposited data

Results flagged for a closer look

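The change over time differed between the 2 experiments, by the interaction test of edgeR with adjustment over all tested genes, for 1 member and 16 list genes named above. The same test called 16.1% of all tested genes (1894 of 11772). Some of the list genes were chosen after their values were seen, so their number is not a result about the lists. Slopes are log2 per 100 min, and each difference is Ex5 minus Ex4, over 16 libraries in each. Lin28a differed by -0.08 (-0.0316 ± 0.0156 SE in Ex4, -0.116 ± 0.0149 in Ex5, adjusted p = 0.00475). The naive pluripotency factors Klf5 and Tfcp2l1 fell faster in Ex5, by -0.18 (adjusted p = 0.0439) and -0.36 (adjusted p = 0.031). Cdh1 fell faster in Ex5 by -0.17 (-0.499 ± 0.028 and -0.673 ± 0.0286, adjusted p = 0.0018). For Trim71 the difference was -0.23, with 0.0445 ± 0.0326 in Ex4 and -0.19 ± 0.0312 in Ex5 (adjusted p = 0.000267). Sall1 rose more slowly in Ex5, by -0.18 (adjusted p = 6.37e-07), and Sall2 and Sall3 also had a difference of -0.18 each (adjusted p = 1.39e-05 and 7.16e-05). In the caudal epiblast list T differed by -0.20 (adjusted p = 4.02e-06), Mixl1 by -0.39 (adjusted p = 4e-05) and Cdx2 by -0.12 (adjusted p = 0.00141). The PSM markers Msgn1 and Dll1 differed by -0.28 (adjusted p = 3.98e-06) and -0.15 (adjusted p = 0.000512). For Hes3 it was -0.58 (adjusted p = 0.0492). Positive differences were found for Ifitm3, 0.33 (adjusted p = 0.0297), for Wnt8a, 0.14, which fell more slowly in Ex5 (adjusted p = 0.0306), and for Foxc2, 0.37, which rose faster there (adjusted p = 0.0117). Single libraries were not tested for standing apart, since each experiment has 16.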

How the results depend on the processing

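With 32 libraries left out 1 at a time, the number of members called was 5 (trend), 1 (slope difference), 5 (level), 1 (rhythm) and 0 (curvature) throughout, and all genes called ranged from 5939 to 6556, 1485 to 2025, 6321 to 6563, 124 to 229 and 1574 to 2247. Signs that changed were of uncalled values: the slope difference of Sox2 (-0.0227 to 0.0258) and Lin28b (-0.0200 to 0.0403), and the curvature of Sox2 (-0.0197 to 0.0159), Sall4 (-0.00348 to 0.0175) and Lin28b (-0.0216 to 0.0275). Without the clock terms the slope difference of Sox2 was -0.00616. In Ex5 alone curvature was 0.0828 for Sox2, -0.00424 for Lin28a and -0.05004 for Lin28b, none called. In Ex4 alone it was -0.0649 for Sox2, 0.0292 for Lin28a and 0.0872 for Lin28b, also none called. Rhythm calls changed with the model. With no time trend 62 genes and 0 members passed, at 120 min 0 members, in Ex4 alone 40 genes and 0 members, in Ex5 alone 52 genes and 0 members, and DESeq2 called 2 members. In Ex4 alone 3747 genes passed for trend and 975 for curvature, against 5531 and 1523 in Ex5 alone, also with 16 libraries; the cause was not tested. The labels do not say whether equal time point numbers share a batch or day. Deviations of same-numbered libraries from the mean of each experiment correlated over 0.1 in 14 of 16 pairs (0.0473 to 0.545), and 2 of 16 libraries correlated best with their own number. These deviations still hold the change over time, so they cannot tell whether equal numbers share a batch. The numbers were not used as pairs in the main fit. With the time point number as a replicate block the level differences were -0.46 (Pou5f1), -1.18 (Sox2), -0.12 (Sall4), -0.11 (Lin28a) and -0.22 (Lin28b), 5 members were called and 6052 genes. Each Ex5 library is labelled later than the Ex4 library of its number, and the block model has no slope. Its differences therefore include change over that gap and are not levels at a shared time. Depth limits Nanog, Otx2, Fgf5 and Utf1, of which no library had more than 51 reads.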
